A study of Mus musculus with 13 samples.

Results

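Collagen genes were described across mammary tumours and whole mammary glands of mice. They were taken by name, as every symbol of the form Col, number, a, number, and 44 of the 38279 gene symbols in the count table had such a name. The 6 tumours came from Cre-positive mice in which FBXW7, the substrate-binding part of a ubiquitin ligase, was excised after mating, and were taken at 25, 32, 39, 19, 53 and 25 weeks of age for tumours 1 to 6. The 4 whole glands came from Cre-negative wild-type mice aged 20, 20, 20 and 40 weeks for glands 1 to 4. Mice of both kinds were mated at 12 weeks of age. The labels do not name the promoter that drove Cre. Of the 13 samples in the series, 3 of purified epithelium were not analysed here.

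Genotype and tumour state differed together, so these cannot be told apart in the comparison. Ages overlapped between the groups but were not matched, and an age term was used only in an alternative fit. Total counts ran from 13723065 in gland 3 to 48353114 in gland 2. Luminal epithelial markers were higher in tumours for 7 of 9 genes (77.8%), against 6.89% of all genes tested. Among them was the adhesion molecule Epcam (log2 fold change 3.28 ± 0.54 SE, adjusted p = 0.00552 by edgeR's quasi-likelihood test). Tumours 1 and 6 stood apart from the other tumours, with salivary gland genes at 52.8% and 19.6% of their reads. Gland 4 stood apart from the other glands, with 37.5% mitochondrial counts against 8.07% to 14% in the other 9 libraries and a summed skeletal muscle marker level of 119100 CPM. Levels below are CPM, counts scaled to a common library size with the trimmed mean of M-values, folds are edgeR log2 differences of tumours minus glands with the standard error, and a gene was called at an adjusted p of at most 0.05 over all 20101 genes tested.

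Collagens are secreted trimers built from helical chains rich in glycine and proline. Fibrillar collagens form the cables of connective tissue, type IV collagens form the sheet of the basement membrane beneath epithelium, and types II, IX, X and XI are typical of cartilage. In the mammary gland most fibrillar collagen is made by fibroblasts of the stroma, while the basement membrane surrounds ducts, alveoli, fat cells and vessels. In bulk tissue, fewer cells of a type and less RNA per cell cannot be told apart.

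The cartilage collagens Col2a1, Col9a1, Col9a3 and Col11a1 were higher in tumours, by log2 fold changes of 3.60 to 10.59, and so were the fibril-surface chain Col12a1, the basement membrane chain Col4a5 and the transmembrane chain Col25a1. Lower in tumours were the basement membrane chains Col4a2 and Col15a1 and the minor fibrillar chain Col5a3. The abundant interstitial chains Col1a1, Col1a2 and Col3a1 did not pass the test. In all, 43 of the 44 genes passed the filter on low counts and 10 of them (23.3%) were called, against 15.1% of all genes tested. The 7 higher genes were 16.3% of the members, against 6.89% of all genes, and the 3 lower genes were 6.98%, against 8.19%. Every tumour stood above every gland for 4 members (Col2a1, Col9a1, Col11a1 and Col25a1), while this held for 6.54% of all genes tested. For no member did every tumour stand below every gland, which was so for 7.50% of all genes. The median log2 fold change was -0.25 over the 43 members and 0.17 over all genes tested, with 20 members above 0 and 23 below. DESeq2 called 12 members higher and 6 lower, and limma-voom called 2 higher and 5 lower. The 6 include Col6a4, which edgeR did not test, while DESeq2 gave no adjusted p for Col17a1 or Col27a1. Over all genes DESeq2 called 2881 of 25545 higher and 2742 lower. Limma-voom called 1067 of 20101 higher and 2007 lower. By edgeR the count of higher members was 3 without gland 1 and 3 without gland 2. In those fits 430 and 541 of all genes were higher, against 1384 with all libraries. The count of lower members was 0 without tumour 2, tumour 4, gland 1, gland 2 or gland 3. It was 1 without tumour 5 and 8 without tumour 6. Over all genes the lower count was 1646 with all libraries, and 1026 and 954 without tumours 2 and 4. It was 623, 955 and 1190 without glands 1, 2 and 3, 1292 without tumour 5 and 1849 without tumour 6. Without tumours 1 and 6, 10 members were higher and 8 lower, and without gland 4 as well 8 were higher and 10 lower. Over all genes these fits called 1978 higher and 2277 lower, and 1814 higher and 2826 lower.

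**Figure D1:**
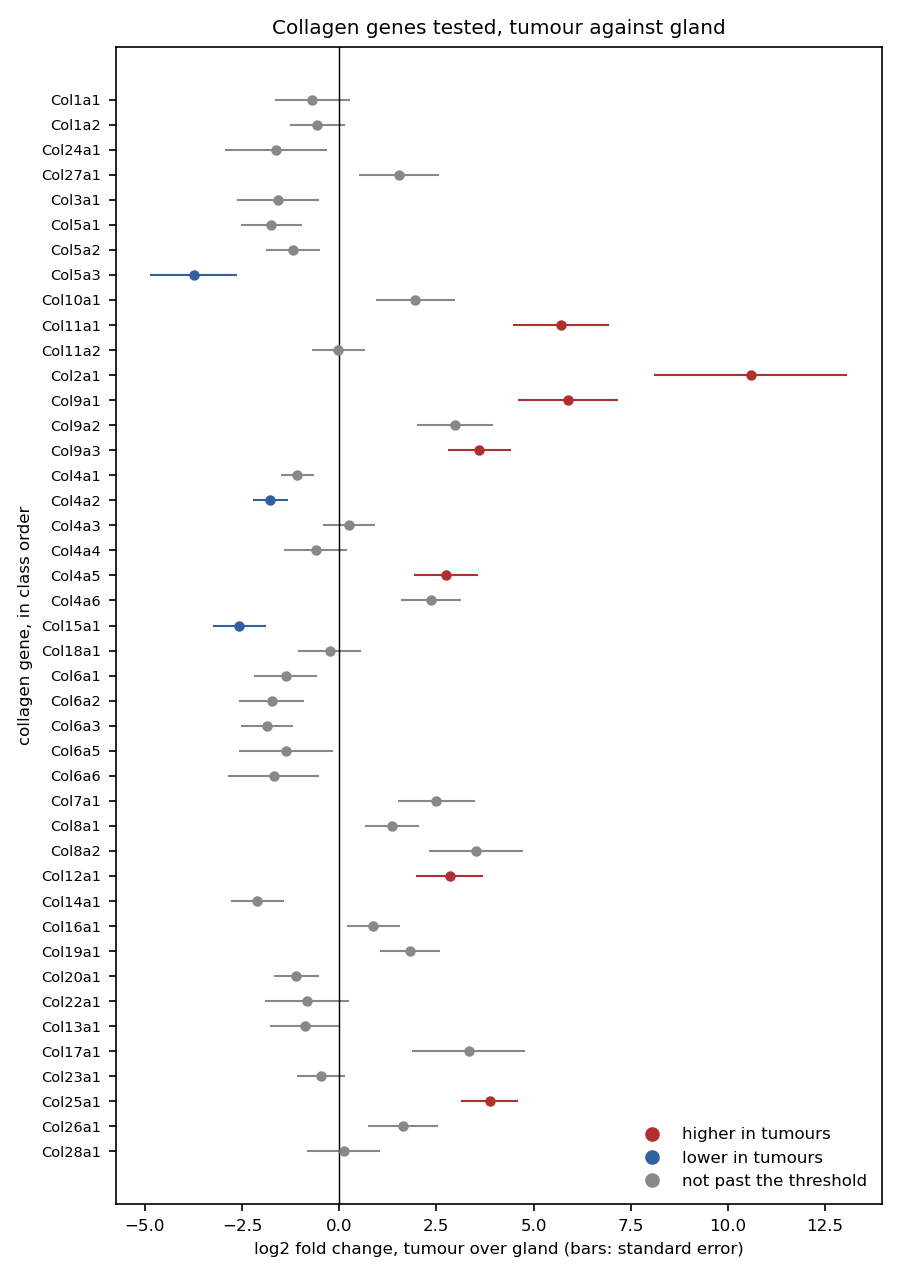
Log2 fold changes (horizontal axis, tumours minus glands, edgeR) of the 43 tested collagen genes, listed in class order, with bars of 1 standard error. Members called higher and lower are coloured apart from those not called. The cartilage chains reach 10.59, while the fibrillar chains lie between -3.74 and 1.54.

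Collagen levels varied more among the tumours than those of most genes. The median range over the 6 tumours was 4.57 on the log2 scale for the 43 members and 2.17 for all genes tested. Over the 4 glands the median range was 1.69 for the members and 1.31 for all genes, and over glands 1 to 3 alone it was 0.90 and 0.67. The tumours spanned more than 8-fold for 36 members (83.7%), against 31.1% of all genes tested. Tumour 6 was the highest tumour for 16 members, and tumour 3 was the lowest for 14. Among the glands, gland 1 was the highest for 27 members and gland 4 the lowest for 21.

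**Figure D2:**
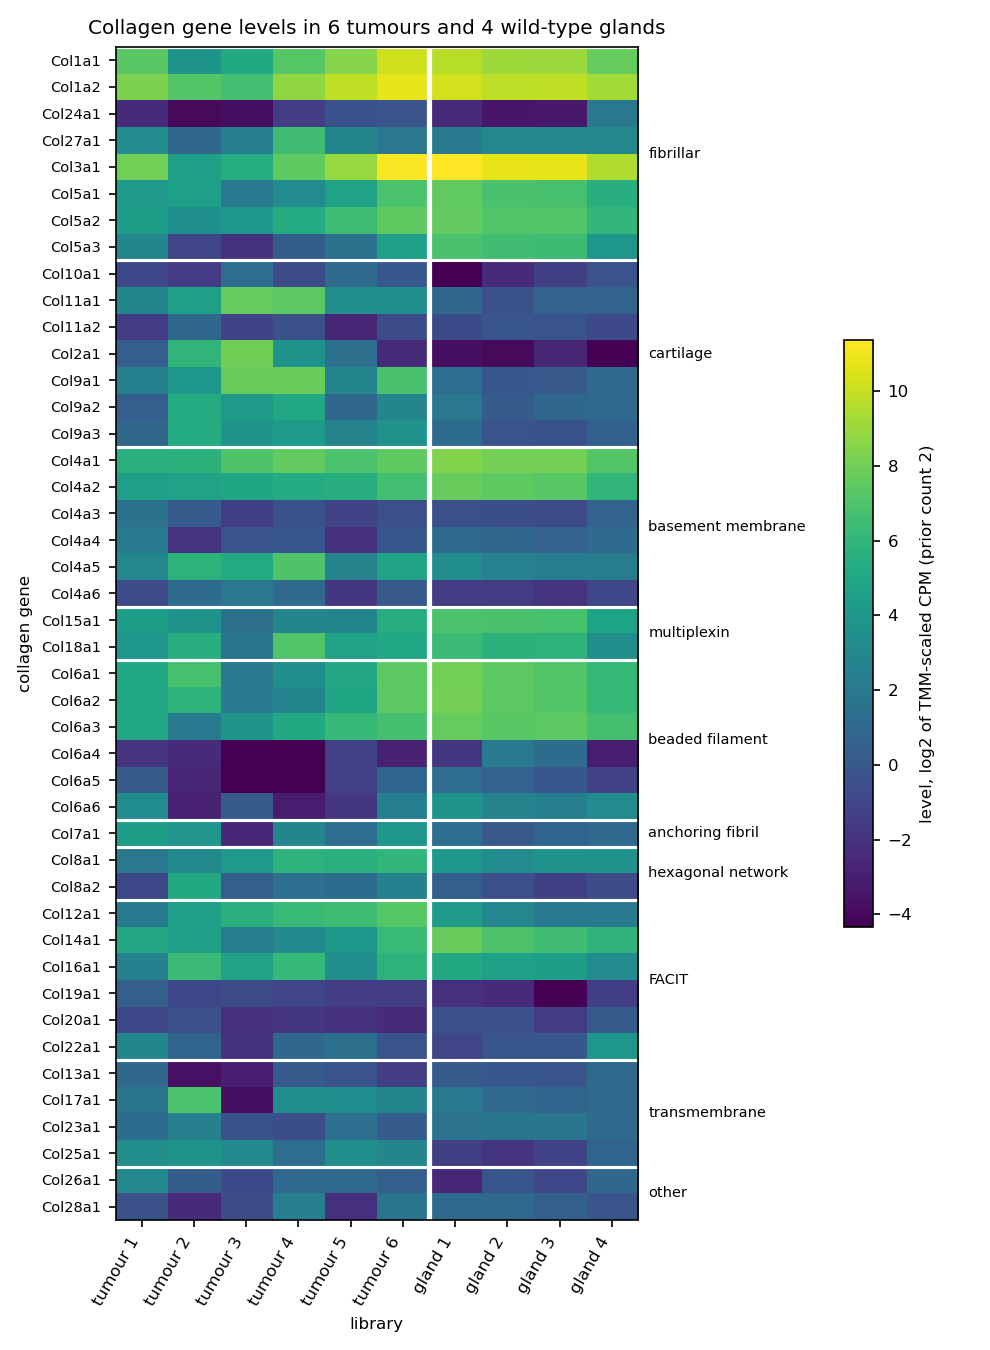
Level of each collagen gene (rows, grouped by class) in the 6 tumours and 4 glands (columns), coloured by log2 CPM. Tumours 2, 3 and 4 are the brightest tumours for Col2a1, Col9a3 and Col11a1, and tumours 3, 4 and 6 for Col9a1. The rows of Col1a1, Col3a1 and Col6a1 to Col6a3 are brightest in tumour 6 and glands 1 to 3.

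The make-up of the collagen message also differed between libraries. Fibrillar chains took 68.8, 19.7, 16.6, 41.9, 76.9 and 80.9% of all collagen counts in tumours 1 to 6, against 73.9, 73.2, 74.8 and 72.2% in glands 1 to 4. The glands lay within a narrow band, with tumour 1 somewhat and tumours 2, 3 and 4 far below it and tumours 5 and 6 above. Cartilage chains took 1.54, 16.5, 55.5, 20.9, 1.21 and 2.07% in the tumours, against 0.152, 0.0930, 0.132 and 0.357% in the glands. All 6 tumours exceeded all 4 glands in that share, and in tumour 3 cartilage chains were the larger part of collagen counts. Basement membrane chains took 7.60, 12.8, 16.5, 16.8, 7.02 and 4.21% in the tumours, against 8.01, 9.28, 8.96 and 9.43% in the glands, so the groups overlapped. Beaded filament chains (type VI) took 1.89% to 15.5% in the tumours, against 9.60% to 11.3% in the glands. In tumour 2, transmembrane chains took 12.6%, of which Col17a1 alone was 10.8%. These shares are values without a test and do not depend on scaling between libraries. With 1 library left out the tumour median of the fibrillar share was 41.9% or 68.8%, and that of the cartilage share was 2.07% or 16.5%, depending on which tumour was missing.

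All collagen genes together held 0.0484, 0.151, 0.111, 0.276, 0.351 and 0.709% of the counts of tumours 1 to 6, against 0.752, 0.656, 0.626 and 0.132% in glands 1 to 4. Glands 1 to 3 and tumour 6 were alike in this share, and gland 4 fell among the tumours. Outside salivary and mitochondrial genes the share was 0.124, 0.166, 0.127, 0.313, 0.387 and 0.980% in the tumours and 0.875, 0.753, 0.728 and 0.211% in the glands. Col1a2 had the most counts of any collagen gene in tumours 1, 2, 4 and 5, Col2a1 in tumour 3, and Col3a1 in tumour 6 and all 4 glands. Per kilobase of transcript, Col1a2, Col3a1, Col1a1, Col9a1 and Col4a1 led in the tumours, with mean levels of 115, 105, 54.1, 24.8 and 18.3 CPM per kilobase. In the glands Col3a1, Col1a2, Col1a1, Col4a1 and Col6a1 led, with 314, 169, 87.2, 38.7 and 38.5 CPM per kilobase. The cartilage chain Col9a1 owed its place in the tumour means to tumours 3, 4 and 6, and over single tumours it ran from 1.5 to 57.1 CPM per kilobase.

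**Figure D3:**
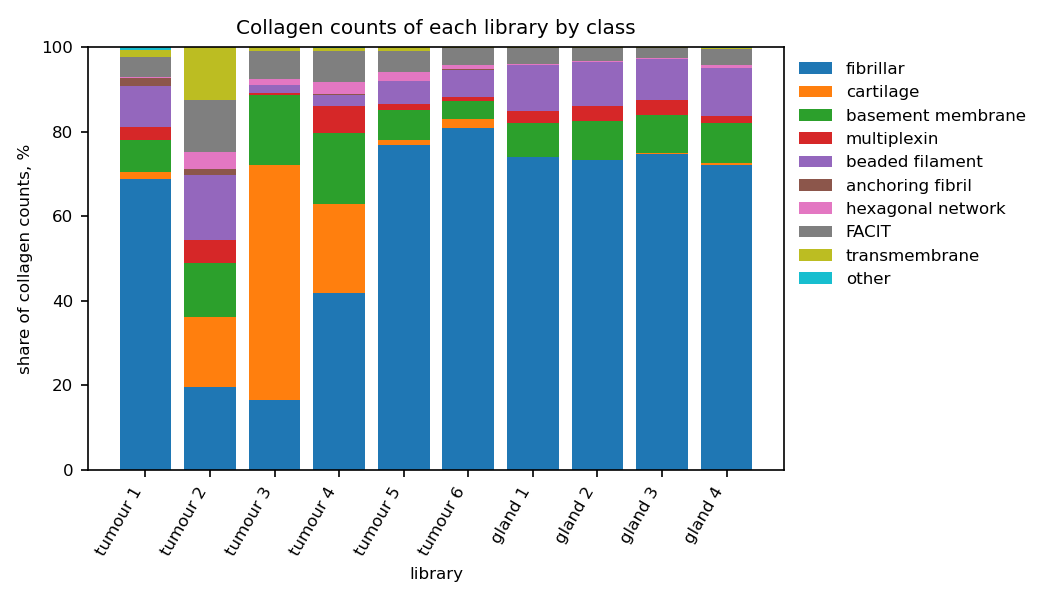
Share of all collagen counts (vertical axis, percent) taken by each class in each library, tumours left and glands right. The fibrillar part is between 72.2 and 74.8% in all glands and between 16.6 and 80.9% in the tumours, and the cartilage part reaches 55.5% in tumour 3.

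The cartilage class had 7 members, of which 4 were called higher and none lower. Col2a1 encodes the main fibrillar chain of cartilage. It had 1.30, 61.3, 253, 12.6, 2.66 and 0.139 CPM in tumours 1 to 6, against 0.0285, 0.0156, 0.111 and 0 CPM in glands 1 to 4, with a log2 fold change of 10.59 ± 2.48 (adjusted p = 0.0200). The tumours spread over more than 3 orders of magnitude, and the lowest, tumour 6, was only just above gland 3. The glands held 1, 1, 2 and 0 reads of Col2a1 and tumour 6 held 5, so the size of the fitted fold depends on how such low counts are modelled. The adjusted p was 0.0678 without gland 1 and 0.0610 without gland 2, and limma-voom gave 0.150.

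Type IX collagen sits on the surface of type II fibrils and consists of the chains of Col9a1, Col9a2 and Col9a3. Col9a1 had 5.76, 15.0, 206, 219, 7.07 and 117 CPM in tumours 1 to 6, against 2.48, 0.937, 1.00 and 1.97 CPM in glands 1 to 4 (5.89 ± 1.28, adjusted p = 0.0150). It was called in all 10 fits that left out a library, with log2 fold changes of 5.47 to 6.20, while limma-voom gave an adjusted p of 0.0754. Col9a3 had 1.71, 40.3, 13.6, 20.2, 6.33 and 12.5 CPM in the tumours, against 2.28, 0.781, 0.724 and 1.40 CPM in the glands (3.60 ± 0.81, adjusted p = 0.0173, and 0.0541 without gland 2). For Col9a3 every tumour but tumour 1 was above all glands. Col9a2 had 1.23, 40.3, 18.7, 33.6, 1.71 and 7.0 CPM in the tumours, against 3.62, 1.14, 1.89 and 1.97 CPM in the glands, and missed the threshold at 2.98 ± 0.98 (adjusted p = 0.0605). Its adjusted p was 0.00595 by DESeq2, 0.0286 without tumour 1 and 0.0374 without tumour 5. In tumours 1 and 5 Col9a2 lay within the range of the glands, and in tumours 2, 3, 4 and 6 above it.

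Col11a1 encodes a chain of type XI collagen, which forms the core of thin cartilage fibrils. It had 7.06, 24.1, 200, 168, 10.2 and 10.6 CPM in tumours 1 to 6, against 1.71, 0.734, 1.45 and 1.53 CPM in glands 1 to 4 (5.70 ± 1.23, adjusted p = 0.0148). The groups did not overlap, and tumours 3 and 4 stood far above the other tumours. Without gland 1 its adjusted p was 0.0513, and by limma-voom it was 0.0570. Col11a2, its partner in cartilage, had 0.112 to 1.88 CPM in the tumours and 0.509 to 0.859 CPM in the glands and was not called (-0.02 ± 0.69, adjusted p = 0.985). Col10a1, a network collagen of the hypertrophic cartilage of growing bone, had 0.480, 0.287, 2.37, 0.555, 2.20 and 0.892 CPM in the tumours, against 0, 0.140, 0.334 and 0.763 CPM in the glands (1.96 ± 1.02, adjusted p = 0.198). The chains therefore did not have a common order among the tumours. Tumour 3 was highest for Col2a1, Col11a1 and Col10a1, tumour 4 for Col9a1, and tumour 2 for Col9a2, Col9a3 and Col11a2.

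**Figure D4:**
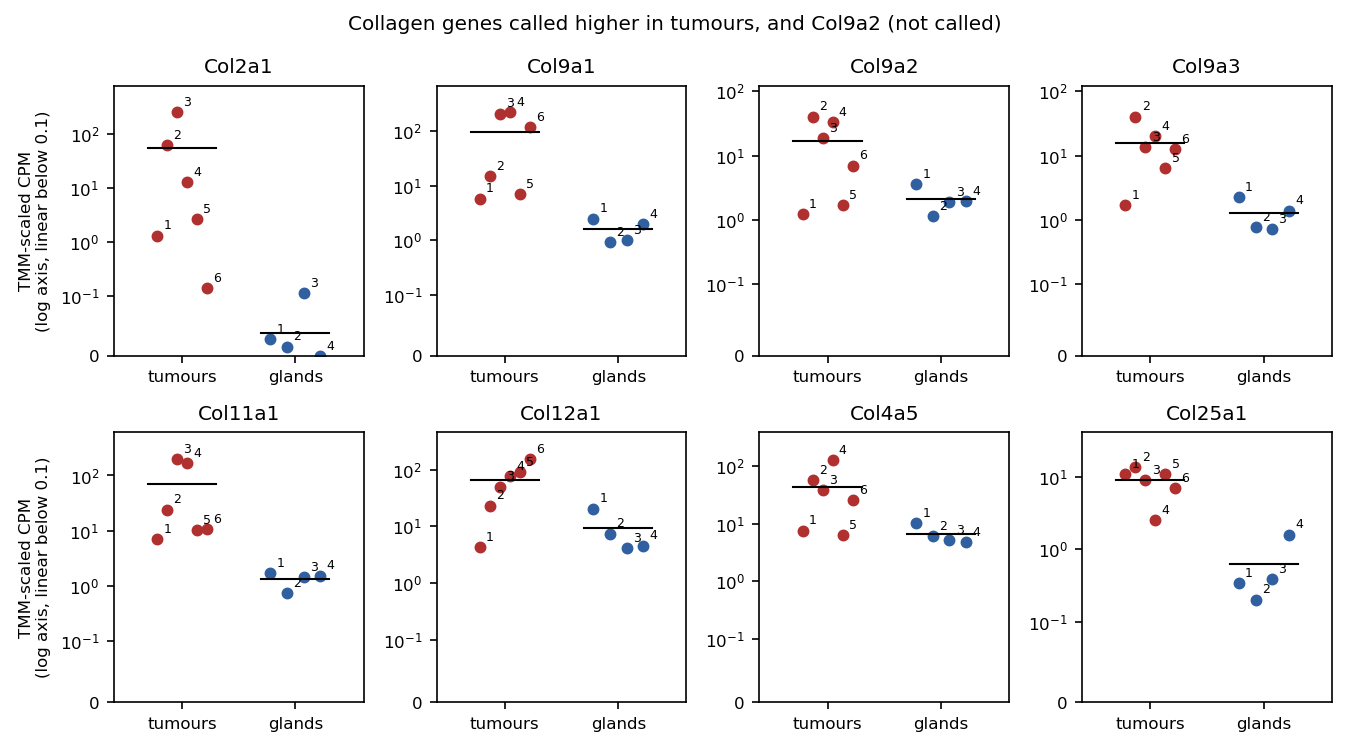
Level (CPM, log axis that is linear below 0.1) of the 7 collagen genes called higher in tumours and of Col9a2, with 1 numbered point per library and a line at each group's mean. All tumours lie above all glands for Col2a1, Col9a1, Col11a1 and Col25a1, and at least 1 tumour lies among the glands for the other genes.

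Promoter windows of Col9a1, Col9a2 and Col11a1 are shown because these chains differed in which tumour was highest, with Col9a1 and Col11a1 called higher and Col9a2 not called. Col2a1 and Col9a3 had no match, and the windows of the uncalled Col10a1 and Col11a2 are not printed. The windows run from 250 bases before to 50 bases after a RefSeq start on GRCm38.p6, and 35 of the 44 members had at least 1, giving 38 windows. Capitals mark CCAAT and CCGCCC on either strand (ATTGG and GGGCGG on the reverse), the box bound by NF-Y and a core bound by SP family factors. Col9a1 has an upstream start, chr1:24177360-24177659, and a downstream start, chr1:24194953-24195252, both on the plus strand. Col9a2 lies at chr4:121039316-121039615 and Col11a1 at chr3:114030290-114030589, also on the plus strand.
Col9a1, upstream start: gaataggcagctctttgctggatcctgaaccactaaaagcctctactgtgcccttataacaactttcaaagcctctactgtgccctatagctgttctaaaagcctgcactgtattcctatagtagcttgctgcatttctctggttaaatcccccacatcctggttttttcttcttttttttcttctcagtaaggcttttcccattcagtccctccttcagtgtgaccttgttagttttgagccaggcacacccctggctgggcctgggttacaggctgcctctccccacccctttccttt
Col9a1, downstream start: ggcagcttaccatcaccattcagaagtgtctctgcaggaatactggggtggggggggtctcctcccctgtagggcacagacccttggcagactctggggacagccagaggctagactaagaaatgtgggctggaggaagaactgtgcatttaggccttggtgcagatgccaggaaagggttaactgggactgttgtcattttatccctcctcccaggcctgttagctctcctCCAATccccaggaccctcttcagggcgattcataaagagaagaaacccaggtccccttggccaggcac
Col9a2: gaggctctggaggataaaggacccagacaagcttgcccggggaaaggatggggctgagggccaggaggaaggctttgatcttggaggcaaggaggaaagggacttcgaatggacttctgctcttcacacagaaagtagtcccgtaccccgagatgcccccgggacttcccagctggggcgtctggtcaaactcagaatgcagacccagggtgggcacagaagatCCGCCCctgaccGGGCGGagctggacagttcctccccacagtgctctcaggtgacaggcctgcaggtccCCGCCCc
Col11a1: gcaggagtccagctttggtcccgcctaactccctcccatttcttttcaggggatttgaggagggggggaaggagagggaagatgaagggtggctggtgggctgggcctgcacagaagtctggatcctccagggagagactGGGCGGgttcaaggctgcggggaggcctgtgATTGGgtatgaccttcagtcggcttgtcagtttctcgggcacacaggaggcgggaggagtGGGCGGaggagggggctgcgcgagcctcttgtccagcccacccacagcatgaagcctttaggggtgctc

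The upstream Col9a1 window held neither motif and the downstream one held CCAAT. Col9a2 held CCGCCC on both strands, and Col11a1 held both motifs on the reverse strand. Over all member windows CCGCCC was present in 23 of 38 (60.5%), against 35.7% of 32851 windows of all genes, beside a median GC content of 59.8% in member windows and 52.7% in all windows. CCAAT was present in 13 of 38 (34.2%), against 37.4% of all windows. The letters ACAAAG, a core bound by SOX family factors, were in 5 of 38 (13.2%), against 18.7% of all windows. ATTGG and GGGCGG can share letters where they adjoin, which does not occur in the windows printed. These matches describe letters in short windows and carry no test.

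Markers of cartilage and bone cells were partly higher in the same tumours. Of 11 such genes 4 passed the filter and 2 were called higher, the cartilage glycoprotein Cnmd and the transcription factor Sox9. Cnmd had 0.754, 15.0, 368, 14.7, 4.00 and 1.37 CPM in tumours 1 to 6, against 0.713, 0.265, 0.223 and 1.78 CPM in glands 1 to 4 (6.54 ± 2.02, adjusted p = 0.0497). Sox9, which is also expressed by mammary epithelium, had 135, 524, 27.3, 39.7, 114 and 87.2 CPM in the tumours, against 18.3, 16.4, 29.0 and 37.4 CPM in the glands (2.61 ± 0.80, adjusted p = 0.0483). Sox9 was lowest in tumours 3 and 4, where Col9a1 and Col11a1 were highest. Acan, the main cartilage proteoglycan, had 0.411, 0.242, 8.11, 6.62, 0.0186 and 0.0558 CPM in the tumours and no reads in any gland. The cartilage matrix gene Comp had 0.182 to 5.24 CPM in the tumours and 0.127 to 0.913 CPM in the glands, and Matn1 had no reads in tumours 3 and 4. Runx2, not called, had 20.1, 8.17, 2.60, 3.76, 9.49 and 8.20 CPM in tumours 1 to 6, lowest in tumours 3 and 4. In the glands it had 2.11 to 6.74 CPM. Bglap had 31.2 CPM in tumour 1 and at most 1.12 CPM in any other library. Hapln1, Matn3, Sp7 and Ibsp were at most 0.614 CPM in any library. The summed level of the list was 190, 548, 412, 67.6, 129 and 98.6 CPM in tumours 1 to 6, against 22.2, 24.2, 36.6 and 44.9 CPM in glands 1 to 4. Sox9 made up most of it in every library but tumour 3, where Cnmd did. The part of such cells in the cartilage collagen levels was not tested.

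The basement membrane class had 6 members, the chains of type IV collagen, with 1 called higher and 1 lower. Their genes lie in head-to-head pairs, of which Col4a1 and Col4a2 form the common network of nearly every basement membrane. Col4a2 had 23.2, 26.6, 29.9, 39.6, 47.7 and 96.9 CPM in tumours 1 to 6, against 208, 174, 154 and 62.4 CPM in glands 1 to 4, and was called lower (-1.77 ± 0.45, adjusted p = 0.0269). Every tumour was below glands 1 to 3, and tumour 6 was above gland 4. Col4a1 had 49.3, 54.3, 133, 192, 120 and 177 CPM in the tumours, against 338, 277, 267 and 143 CPM in the glands, and was not called (-1.08 ± 0.43, adjusted p = 0.107). The adjusted p of Col4a2 was between 0.0530 and 0.0868 without tumour 2, tumour 4, gland 1, gland 2 or gland 3, was 0.0818 with age in the model, and was 0.00963 without tumour 6.

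The neighbours Col4a1 and Col4a2 did not move by the same amount within libraries. There were 2.13, 2.04, 4.45, 4.86, 2.52 and 1.82 reads of Col4a1 per read of Col4a2 in tumours 1 to 6, against 1.62, 1.59, 1.73 and 2.30 in glands 1 to 4. Tumours 3, 4 and 5 exceeded all glands, and all 6 tumours exceeded glands 1 to 3. Their windows are shown because the 2 genes share 1 start region on chromosome 8, with starts 21 bases apart on opposite strands. Col4a1 lies at chr8:11312777-11313076 on the minus strand and Col4a2 at chr8:11312555-11312854 on the plus strand, on GRCm38.p6 from RefSeq. Capitals mark the 78 bases that both windows share, each written on its own strand.
Col4a1: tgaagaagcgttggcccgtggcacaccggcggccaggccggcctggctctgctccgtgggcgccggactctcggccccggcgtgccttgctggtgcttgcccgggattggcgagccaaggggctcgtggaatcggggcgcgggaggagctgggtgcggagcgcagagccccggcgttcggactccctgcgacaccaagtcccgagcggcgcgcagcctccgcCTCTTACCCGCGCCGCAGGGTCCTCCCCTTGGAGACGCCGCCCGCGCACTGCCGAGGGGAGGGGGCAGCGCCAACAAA
Col4a2: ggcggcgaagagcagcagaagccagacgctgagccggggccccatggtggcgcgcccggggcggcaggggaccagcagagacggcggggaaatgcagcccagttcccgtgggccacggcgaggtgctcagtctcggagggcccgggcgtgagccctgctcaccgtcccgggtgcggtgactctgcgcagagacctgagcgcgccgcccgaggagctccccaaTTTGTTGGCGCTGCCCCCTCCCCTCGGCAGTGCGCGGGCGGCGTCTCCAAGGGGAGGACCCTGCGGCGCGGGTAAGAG

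Col4a5 and Col4a6, a head-to-head pair on chromosome X with starts 1343 bases apart, encode chains of the basement membrane of breast ducts, kidney and skin. Col4a5 had 7.54, 56.8, 38.8, 129, 6.27 and 25.7 CPM in tumours 1 to 6, against 10.2, 6.12, 5.18 and 4.83 CPM in glands 1 to 4, and was called higher (2.74 ± 0.82, adjusted p = 0.0444). Tumours 2, 3, 4 and 6 were above all glands, and tumours 1 and 5 were within their range. Its adjusted p ran from 0.0256 to 0.113 when 1 library was left out, and was above 0.05 without tumour 2, 3 or 4 or any 1 of the 4 glands. It was also lost by limma-voom (0.139) and with no filter on low counts (0.0562). Col4a6 had 0.548, 2.16, 3.73, 2.11, 0.223 and 0.976 CPM in the tumours, against 0.314, 0.281, 0.223 and 0.445 CPM in the glands (2.37 ± 0.77, adjusted p = 0.0585). It was called without tumour 1 (adjusted p = 0.0416) and without tumour 5 (0.0293). The count ratio of Col4a5 to Col4a6 was 10.4 to 61.0 in the tumours and 10.9 to 32.5 in the glands, so the groups overlapped. Col4a3 and Col4a4, the partner chains of specialised membranes such as that of the kidney glomerulus, had at most 4.59 CPM in any tumour and 2.16 CPM in any gland, and neither was called (0.24 ± 0.67 and -0.61 ± 0.82).

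The multiplexins are basement membrane collagens whose tail fragments are known as endostatin and restin. Col15a1, which links the membrane to the stroma, had 21.2, 13.4, 2.75, 6.90, 6.62 and 43.3 CPM in tumours 1 to 6, against 118, 115, 113 and 27.3 CPM in glands 1 to 4, and was called lower (-2.57 ± 0.69, adjusted p = 0.0312). Glands 1 to 3 were nearly equal and above all tumours, while tumour 6 was above gland 4. Col15a1 was no longer called without tumour 2, 4 or 5 or gland 1, 2 or 3, with adjusted p up to 0.0833, nor with age in the model (0.0675). Without tumour 6 its log2 fold change was -3.29 (adjusted p = 0.00981). Col18a1 had 15.1, 45.3, 3.36, 134, 25.6 and 33.5 CPM in the tumours and 82.0, 53.1, 57.4 and 10.9 CPM in the glands (-0.25 ± 0.80, adjusted p = 0.845), so that tumour 4 was the highest library for this gene.

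Several markers of cells that rest on or in basement membrane were also lower in tumours. Of the endothelial markers 5 of 8 (62.5%) were lower in tumours, against 8.19% of all genes tested. Their summed levels were 42.1 to 441 CPM in the tumours and 170 to 219 CPM in the glands. The uncalled Pecam1 made up most of the highest sum, with 408 CPM in tumour 1. Of the fat cell markers 9 of 9 (100%) were lower, with sums of 14.8 to 1062 CPM in the tumours and 3949 to 24368 CPM in the glands. Of the pericyte and smooth muscle markers 3 of 8 (37.5%) were lower. Their sums were 49.0 to 322 CPM in the tumours and 193 to 485 CPM in the glands. The part of these cell types in the collagen levels was not tested.

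The fibrillar class outside cartilage had 8 members, with none called higher and Col5a3 called lower. Types I and III are the bulk of stromal collagen. Col1a1 had 166, 14, 37.1, 148, 357 and 1203 CPM in tumours 1 to 6, against 803, 541, 521 and 203 CPM in glands 1 to 4 (-0.69 ± 0.96, adjusted p = 0.629). Its partner chain Col1a2 had 310, 142, 103, 437, 934 and 1756 CPM in the tumours, against 1235, 875, 926 and 576 CPM in the glands (-0.56 ± 0.72, adjusted p = 0.602). Both genes were highest of all libraries in tumour 6 and lowest in tumours 2 and 3. Col3a1, which forms the thin fibrils of pliable tissue, had 266, 25.3, 40.9, 180, 498 and 2510 CPM in the tumours, against 2628, 1855, 1787 and 726 CPM in the glands (-1.58 ± 1.05, adjusted p = 0.307). Tumours 1 to 5 were below all glands and tumour 6 was within their range. Without tumour 6 the log2 fold change of Col3a1 was -3.16 and it was called (adjusted p = 0.0318).

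Type V collagen sets the diameter of type I fibrils. Col5a3 had 7.26, 0.424, 0.198, 1.2, 2.88 and 22.7 CPM in tumours 1 to 6, against 114, 91.6, 86.5 and 15.3 CPM in glands 1 to 4, and was called lower (-3.74 ± 1.12, adjusted p = 0.0454). Tumours 1 to 5 were below all glands, and tumour 6 was above gland 4. Its adjusted p was 0.0122 without tumour 6 and 0.0452 without gland 4, and was between 0.0523 and 0.111 without any other 1 library. Col5a1 had 17.3, 22.6, 4.18, 9.45, 26.7 and 121 CPM in the tumours, against 182, 116, 109 and 44.6 CPM in the glands (-1.75 ± 0.78, adjusted p = 0.140), and was called without tumour 6 (-2.86, adjusted p = 0.0124). Col5a2 had 21.2, 11.8, 16.1, 39.5, 90.6 and 174 CPM in the tumours, against 192, 139, 138 and 67.7 CPM in the glands (-1.19 ± 0.70, adjusted p = 0.250). All type V chains were thus highest among tumours in tumour 6, as were Col1a1, Col1a2 and Col3a1. The remaining fibrillar chains were low. Col27a1 had 95.1 CPM in tumour 4 and 1.92 to 9.53 CPM in the other tumours, against 4.22 to 8.39 CPM in the glands (1.54 ± 1.02, adjusted p = 0.303), and without tumour 4 its log2 fold change was -0.34. Col24a1 had at most 0.808 CPM in a tumour, against 4.07 CPM in gland 4 and at most 0.143 CPM in the other glands (-1.63 ± 1.32), and without gland 4 its log2 fold change was 1.97.

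Type VI collagen forms beaded filaments around cells. All 5 tested members had negative log2 fold changes, between -1.85 and -1.36, and none was called. Col6a1 had 33.7, 111, 4.63, 11.1, 34.7 and 169 CPM in tumours 1 to 6, against 257, 168, 137 and 69.4 CPM in glands 1 to 4 (-1.38 ± 0.81, adjusted p = 0.250). Col6a2 had 33.3, 56.3, 4.08, 6.76, 29.3 and 166 CPM in the tumours, against 273, 171, 143 and 74.2 CPM in the glands (-1.74 ± 0.84, adjusted p = 0.167). Col6a3 had 33.9, 4.13, 13.8, 37.6, 73.1 and 107 CPM in the tumours, against 204, 166, 171 and 105 CPM in the glands (-1.85 ± 0.67, adjusted p = 0.0842). Tumour 6 lay in the range of the glands for these 3 chains, and without it Col6a2 (-2.73, adjusted p = 0.0306) and Col6a3 (-2.35, adjusted p = 0.0382) were called lower. The minor chains Col6a5 and Col6a6 were at most 9.59 CPM in any tumour and 13.7 CPM in any gland. Col6a4, which did not pass the filter, had 0 to 0.353 CPM in the tumours and 0.0636 to 4.31 CPM in the glands.

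Of 10 fibroblast markers 3 (30.0%) were called lower in tumours (Pdgfra, Fap and Gsn), against 8.19% of all genes tested. All 10 had negative log2 fold changes, with a median of -2.63. Their summed level was 1371, 150, 53.1, 171, 280 and 1753 CPM in tumours 1 to 6, against 13831, 8323, 8790 and 2996 CPM in glands 1 to 4. All tumours were below all glands, with tumours 6 and 1 the highest tumours and tumour 3 the lowest. Gsn made up most of the sum in glands 1 to 3, with 9819, 5580 and 5851 CPM. In gland 4 Dcn was the largest part, with 1437 CPM. Salivary genes were also high in tumours 1 and 6. The part of fibroblast numbers or of salivary tissue in these collagen levels was not tested.

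Type XII and XIV collagens bind the surface of type I fibrils. Col12a1 had 4.32, 23.2, 50.4, 76.7, 89.6 and 152 CPM in tumours 1 to 6, against 20.6, 7.48, 4.07 and 4.58 CPM in glands 1 to 4, and was called higher (2.84 ± 0.87, adjusted p = 0.0477). Tumours 2 to 6 were above all glands, and tumour 1 was below 3 of them. This call was the least stable, since leaving out any 1 library other than tumour 1 gave adjusted p between 0.0526 and 0.125. It was also lost with salivary and mitochondrial genes left out of scaling (0.0506), with no filter on low counts (0.0612), with age in the model (0.0748) and by limma-voom (0.112). Col14a1 had 34.7, 24.5, 4.82, 8.88, 16.4 and 80.3 CPM in the tumours, against 212, 124, 93.2 and 57.8 CPM in the glands (-2.11 ± 0.68, adjusted p = 0.0567), and was called lower without tumour 6 (-2.84, adjusted p = 0.0130) and by DESeq2 (0.0171). The 2 fibril-surface chains therefore had opposite signs. Col16a1 had 5.96 to 83.4 CPM in the tumours and 9.41 to 36.6 CPM in the glands (0.88 ± 0.69, adjusted p = 0.385). Col19a1, Col20a1 and Col22a1 were at most 7.33 CPM in any tumour and were not called. Col22a1 was at 14.9 CPM in gland 4, and its log2 fold change was -0.84 over all libraries and 1.55 without that gland.

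Transmembrane collagens are held in the cell membrane by their own hydrophobic stretch. Col25a1, known from nerve and developing muscle and from amyloid plaques of the brain, had 10.8, 13.6, 9.10, 2.5, 10.8 and 6.94 CPM in tumours 1 to 6, against 0.342, 0.203, 0.390 and 1.59 CPM in glands 1 to 4. All tumours were above all glands, and the tumours spanned less for this gene than for any other member called higher. It was called with a log2 fold change of 3.87 ± 0.73 (adjusted p = 0.00952), the smallest p among the members. In the 10 fits that left out 1 library its adjusted p stayed between 0.00350 and 0.0384. The Col25a1 window is shown because this call held in all of them. It lies at chr3:130180595-130180894 on the plus strand of GRCm38.p6, from RefSeq, with CCAAT and CCGCCC in capitals on either strand.
Col25a1: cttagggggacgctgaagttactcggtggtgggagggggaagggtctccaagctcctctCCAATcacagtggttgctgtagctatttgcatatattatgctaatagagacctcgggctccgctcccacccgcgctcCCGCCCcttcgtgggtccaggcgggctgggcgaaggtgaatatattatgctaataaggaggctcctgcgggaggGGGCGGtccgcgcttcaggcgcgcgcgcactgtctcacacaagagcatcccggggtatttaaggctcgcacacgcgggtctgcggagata

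Col17a1, a chain of the hemidesmosomes that anchor basal epithelial cells, had 3.15, 120, 0.0247, 10.2, 9.80 and 6.75 CPM in tumours 1 to 6, against 4.19, 1.97, 1.67 and 2.10 CPM in glands 1 to 4 (3.33 ± 1.46, adjusted p = 0.137). Tumour 2 was the highest library and tumour 3 the lowest, and without tumour 2 the log2 fold change was 1.28. Col7a1, the anchoring fibril of stratified epithelium, had 21.4, 14.4, 0.124, 7.09, 2.49 and 15.2 CPM in the tumours, against 2.60, 0.983, 1.61 and 1.97 CPM in the glands (2.5 ± 0.99, adjusted p = 0.106). It too was lowest in tumour 3, and without that tumour it was called higher (2.76, adjusted p = 0.0212). Basal markers were called higher for Krt14 and Krt17 of 8 genes (25.0%), against 6.89% of all genes tested. Their sums were 175, 1195, 111, 839, 4430 and 609 CPM in tumours 1 to 6, and 132 to 208 CPM in the glands. Tumour 3 was lowest for the sum and for both collagens. Tumour 5 was highest for the sum, while tumour 2 was highest for Col17a1 and tumour 1 for Col7a1. The part of basal cells in the level of Col7a1 and Col17a1 was not tested. Col13a1 and Col23a1 were at most 5.55 CPM in any library and were not called.

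The network chains of type VIII, which surround vessels, had positive values that missed the threshold. Col8a1 had 3.91, 8.76, 17.8, 56.7, 50.3 and 63.1 CPM in tumours 1 to 6, against 16.6, 9.26, 12.7 and 13.5 CPM in glands 1 to 4 (log2 fold change 1.36, adjusted p = 0.189). Col8a2 had 0.480, 37.0, 1.26, 2.62, 2.23 and 5.97 CPM in the tumours, against 1.26, 0.656, 0.334 and 0.572 CPM in the glands (3.53 ± 1.21, adjusted p = 0.0689). Tumour 2 alone was far above the other libraries for Col8a2, and without tumour 2 the log2 fold change was 1.83, while without tumour 1 the gene was called (adjusted p = 0.0416). Col26a1 and Col28a1 were at most 8.22 CPM in any library and were not called.

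Chains that are built into the same trimer were compared within libraries by the ratio of their counts, which does not depend on scaling between libraries. Counts were not divided by transcript length unless stated, so these ratios are of reads and not of molecules. Type VI collagen uses Col6a1 and Col6a2, neighbours on chromosome 10, in equal number. Their ratio was 1.01, 1.96, 1.13, 1.65, 1.19 and 1.02 in tumours 1 to 6, against 0.943, 0.982, 0.959 and 0.935 in glands 1 to 4. It was the only ratio of the 8 for which the groups did not overlap. The margin was narrow, since tumours 1 and 6 were nearest to the glands, at 1.01 and 1.02 against 0.982 in gland 2. Among the levels of all genes tested, every tumour stood above every gland for 6.54% and below every gland for 7.50%. Such rates were not computed for ratios of other gene pairs, so this ratio is not shown to be unusual. The ratio of Col6a3 to Col6a1 was 1.01, 0.0374, 2.99, 3.37, 2.11 and 0.632 in the tumours, against 0.792, 0.987, 1.25 and 1.52 in the glands. Tumour 2 had many Col6a1 reads with few of Col6a3, and tumours 3, 4 and 5 had more reads of Col6a3 than of Col6a1. Per kilobase of transcript this ratio was 0.0152 in tumour 2 and 1.21, 1.37 and 0.854 in tumours 3, 4 and 5. In the glands it was 0.321 to 0.615 on that scale.

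Type I collagen takes more of the Col1a1 chain than of the Col1a2 chain. The ratio of Col1a1 to Col1a2 counts was 0.535, 0.0990, 0.359, 0.337, 0.382 and 0.685 in tumours 1 to 6, against 0.651, 0.618, 0.562 and 0.353 in glands 1 to 4, lowest in tumour 2. The ratio of Col5a1 to Col5a2 was 0.816, 1.91, 0.259, 0.239, 0.294 and 0.695 in the tumours, against 0.947, 0.836, 0.791 and 0.659 in the glands. Here tumour 2 was the highest library and tumours 3, 4 and 5 were the lowest. The ratio of Col8a1 to Col8a2 was 0.237 in tumour 2 and 8.14 to 22.5 in the other tumours, against 13.2 to 38.0 in the glands. The ratio of Col9a1 to Col9a3 was 3.36, 0.372, 15.2, 10.8, 1.12 and 9.36 in the tumours, against 1.09, 1.2, 1.38 and 1.41 in the glands. Tumour 2 was thus at an extreme for 6 of the 8 ratios. Tumours 3 and 4 lay close together for Col1a1 to Col1a2, Col4a1 to Col4a2, Col5a1 to Col5a2 and Col6a3 to Col6a1. For Col4a5 to Col4a6 they were the lowest and highest of all libraries, at 10.4 and 61.0.

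**Figure D5:**
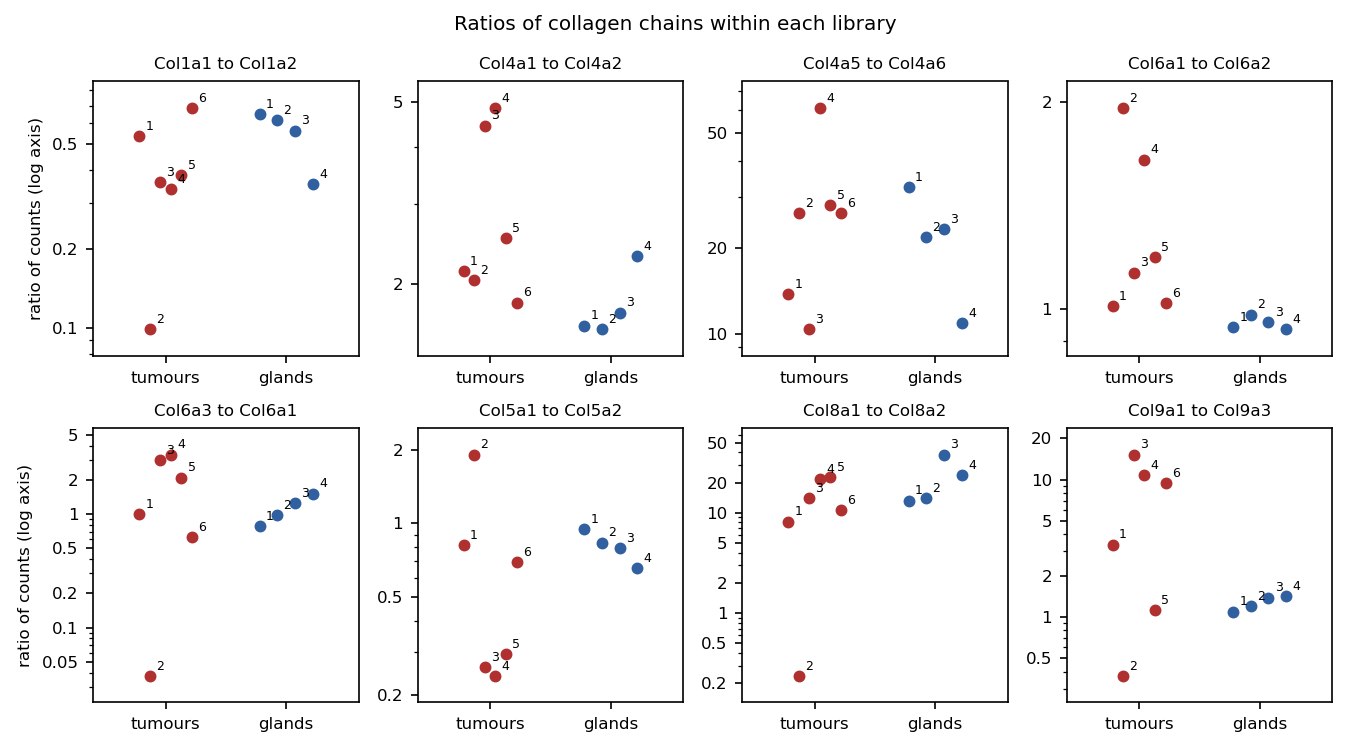
Ratio of counts of paired collagen chains (vertical axis, log scale) in each library, numbered, with tumours left and glands right in each panel. For Col6a1 to Col6a2 the tumours run from 1.01 to 1.96 and the glands from 0.935 to 0.982, and tumour 2 stands apart in several panels.

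Other genes of the collagen pathway were counted in 5 lists, to be read beside the 15.1% of all genes tested that were called (6.89% higher and 8.19% lower). Of 21 tested genes of chain modification and folding, 1 was higher and 1 lower in tumours, 9.52% in all. The prolyl isomerase Ppib had 279, 300, 730, 548, 296 and 234 CPM in tumours 1 to 6, against 147, 134, 137 and 79.0 CPM in glands 1 to 4 (1.68 ± 0.41, adjusted p = 0.0236). All tumours were above all glands. The channel gene Tmem38b, needed for collagen processing in the endoplasmic reticulum, had 16.9, 12.2, 17.2, 12.5, 15.3 and 20.4 CPM in the tumours, against 48.1, 24.6, 22.9 and 87.9 CPM in the glands (-1.54 ± 0.38, adjusted p = 0.0227). The lysyl hydroxylase Plod2 was not called (2.03, adjusted p = 0.131) but had 186 and 100 CPM in tumours 3 and 4, the libraries highest in Col9a1 and Col11a1, against 10.9 to 16.3 CPM in the glands.

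Of 12 tested genes of propeptide cleavage and cross-linking, none was higher and 2 (16.7%) were lower, against 8.19% of all genes lower. The procollagen protease Adamts2 had 19.9, 15.0, 10.5, 16.1, 19.7 and 58.6 CPM in tumours 1 to 6, against 111, 83.7, 81.2 and 30.1 CPM in glands 1 to 4 (-1.72 ± 0.50, adjusted p = 0.0405). The lysyl oxidase relative Loxl1 had 17.8, 7.35, 3.31, 6.14, 10.1 and 57.3 CPM in the tumours, against 158, 93.3, 89.2 and 47.8 CPM in the glands (-2.51 ± 0.71, adjusted p = 0.0382). For both genes tumour 6 was the highest tumour and lay above gland 4. Of 14 fibril-associated genes, 13 had negative log2 fold changes and only the small proteoglycan Ogn was called (-3.78 ± 1.04, adjusted p = 0.0349), with 0.569 to 55.4 CPM in the tumours and 78.8 to 302 CPM in the glands. Of 8 tested collagen receptors, 1 was called, the integrin chain Itga11 (-2.96 ± 0.77, adjusted p = 0.0285), with 0.260 to 3.26 CPM in the tumours and 3.56 to 22.5 CPM in the glands. Of 7 tested genes of collagen breakdown and uptake, 1 was higher and 1 lower. The collagenase Mmp13 had 1.16 to 17.7 CPM in the tumours, against 0.285, 0.219, 0.278 and 0.318 CPM in the glands (4.84 ± 0.83, adjusted p = 0.00661), with all tumours above all glands. The fibroblast protease Fap had 0.817 to 13.5 CPM in the tumours and 17.4 to 31.7 CPM in the glands (-2.61 ± 0.70, adjusted p = 0.0320).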

How the data were processed

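PolyA RNA of whole tumours and glands was sequenced from NEBNext Ultra libraries made from TRIzol extracts, per the labels' protocols. The authors deposited unscaled counts, whole numbers by gene symbol, in 1 table with a column for each of the 10 libraries used here. The submitters' processing notes list the mm9 build, DESeq and Salmon 1.2.0, without a role for any. The treatment of reads shared by similar genes, and of strand, was not given in the sources used here.

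Under R 4.3.3, edgeR 4.0.16 was applied to the counts (filterByExpr with its defaults, TMM scaling, quasi-likelihood F test, tumour against gland, Benjamini-Hochberg over 20101 genes). TMM factors were 0.422 in tumour 1, 0.580 in gland 4 and 0.889 to 1.41 in the others, and the biological coefficient of variation was 0.707. The standard error was the size of the log2 fold change over the root of its F statistic. DESeq2 1.42.0 and limma-voom (limma 3.58.1), other scalings and filters, age as a covariate and leaving out libraries were alternatives. Tested on simulated data of this design (19596 genes), edgeR recovered 0 of 67 genes with a true 2-fold change, 9 of 67 with 4-fold and 35 of 66 with 8-fold, and made 3 false calls, so a gene that was not called may differ. With 25545 genes in its fit to the deposited counts, DESeq2 tests more genes than edgeR, and on the simulated data (20101 genes) it made 33 false calls.

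Levels per kilobase use the longest protein-coding transcript of GENCODE M21. The members and gene lists were chosen with earlier results of these data known. Named genes were the called members, the 10 highest by mean level in either group, the paired chains, up to 3 called genes per pathway list and direction, and a few others described by range. The uncalled members given in every library beyond this rule were added after their values were seen. So were Epcam, Pecam1, Dcn and the cartilage and bone markers named singly. Markers of cells that the tissue could hold were counted in the same fit. Of 7 tested Schwann cell markers 1 was higher and 2 lower, of 9 skeletal muscle markers 6 were lower, and of 7 tested salivary markers 2 were higher. Over all genes tested 6.89% were higher and 8.19% lower. Whether each library is a separate animal is not stated outright in the labels, and p-values cover the spread among these libraries alone.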

Additional observations from a re-analysis of the deposited data

Results flagged for a closer look

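Some values stood far from the others of their group, judged by the gap to the nearest library over the whole range (Dixon's test on log2 levels, which flags about 1 in 20 groups by chance). Of 106 groups examined 6 had such a value, near that rate. Gland 4 was apart from the other glands for 4 values. Col15a1 was at 27.3 CPM there, against 113 to 118 CPM in glands 1 to 3, Col5a3 at 15.3 CPM, against 86.5 to 114 CPM, and the summed multiplexin level at 38.3 CPM, against 168 to 200 CPM. Col4a3 was at 1.53 CPM in gland 4, against 0.557 to 0.656 CPM in glands 1 to 3. Gland 4 is also the library with 37.5% mitochondrial counts and the highest muscle marker sum, and it was the only gland taken at 40 weeks. Col27a1 was at 4.22 CPM in gland 1, against 7.65 to 8.39 CPM in the other glands. The summed transmembrane collagen level was 139 CPM in tumour 2, most of it Col17a1, against 9.92 to 24 CPM in the other tumours.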

How the results depend on the processing

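The counts of calls moved with the tool, the age term and single libraries. Against 7 higher and 3 lower members in the edgeR test, DESeq2 gave 12 and 6, limma-voom 2 and 5, and age as a covariate 6 and 0. Over all genes the calls were 1384 higher and 1646 lower by edgeR, and 2881 and 2742 by DESeq2, which tested 25545 genes. Limma-voom called 1067 higher and 2007 lower over all genes, and the fit with the age term 908 and 991. The lower count was 8 without tumours 1 and 6 and 10 without gland 4 as well, against 2277 and 2826 of all genes. Leaving out 1 library at a time gave 3 to 10 higher members and 0 to 8 lower ones. Over all genes those fits called 430 to 1737 higher and 623 to 1849 lower. At an unadjusted p under 0.05, edgeR had 13 members higher and 7 lower, without a count over all genes to set beside them.

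The median log2 fold change of the members (-0.25) was -0.02 with upper-quartile scaling, -0.46 by limma-voom, -0.46 with a filter of CPM above 1 in 4 libraries and 0.24 with the age term, and -0.40 to 0.04 with 1 library left out (0.00 without tumour 3 and 0.04 without tumour 5). Upper-quartile scaling moved the median of all genes to 0.32, from 0.17 with TMM, and their calls to 1809 higher and 1313 lower, against 1384 and 1646. Its adjusted p for Col5a3 was 0.0509.

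Some uncalled members turned sign in other fits. Col11a2 (-0.02) was 0.15 with upper-quartile scaling, 0.25 with the age term, 0.18 without tumours 1 and 6, 0.01 without gland 4 as well, and -0.70 to 0.21 with 1 library left out. Col18a1 (-0.25) was 0.30 with the age term, 0.02 without tumours 1 and 6, and -1.03 to 0.07 with 1 library left out. By limma-voom Col22a1 was 0.05, Col28a1 -1.09 and Col4a3 -0.08. Without tumours 1 and 6 Col28a1 was -0.08 and Col4a3 -0.40. Without gland 4 as well Col22a1 was 0.97, Col28a1 -0.37 and Col4a3 -0.05. With 1 library left out Col22a1 ran from -1.56 to 1.55, Col24a1 from -2.05 to 1.97 (7 fits, since it failed the filter in 3), Col27a1 from -0.34 to 1.79, Col28a1 from -0.65 to 0.37 and Col4a3 from -0.40 to 0.56. The cause of these changes was not tested.

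Class shares per kilobase of transcript, chosen after seeing the data, moved the gland median of the basement membrane share to 7.95%, from 9.12% of counts. The tumour median of the cartilage share was 12.3% on that scale and 9.31% of counts, and the gland median 0.216% and 0.142%. Those of the anchoring fibril share were 0.164% and 0.269% in tumours and 0.0219% and 0.0355% in glands, and those of the other collagens 0.196% and 0.104% in tumours and 0.0746% and 0.0482% in glands. Shares per residue of protein length were not run. No paired analysis was possible because the labels do not pair glands with tumours. Depth limits Col2a1 in glands most, where 4 libraries held 1, 1, 2 and 0 reads.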
